A study of Mus musculus with 12 samples.

Results

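The step from 24 h to 48 h of exposure to difluoromethylornithine (DFMO) was examined in NIH3T3 fibroblasts, which are an immortal mouse embryo line that keeps dividing in culture. It rests on 5 of the 12 arrays of a time course, namely 2 biological replicates of cells kept in 1 mM DFMO for 48 h and 3 biological replicates of cells kept in the same dose for 24 h. Both groups were drug-treated, and they differed in the length of exposure and, with it, in the time since seeding. The remaining arrays were 2 after 12 h and 2 after 96 h of the same treatment and 3 of untreated cells, placed at 0 h by the series text. The drug was added 24 h after seeding, and the G1 fraction was sorted before RNA was extracted. Untreated cells were profiled at 0 h only in what was analysed here, so effects of exposure and of hours in culture cannot be told apart.

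DFMO is a suicide inhibitor of ornithine decarboxylase, which makes putrescine, the precursor of spermidine and spermine. These polyamines are small, positively charged molecules that bind nucleic acids and ribosomes, and spermidine donates the side chain of hypusine, the modified residue of the translation factor eIF5A. Pools of polyamines run down over hours to days after the enzyme is blocked, and fibroblasts deprived of them slow or stop dividing. The comparison of 48 h with 24 h asks which transcripts moved in the second day of that process.

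Expression was read on whole-transcript arrays as log2 intensity, and 19938 genes with 1 symbol each were tested. A gene was called at a limma adjusted p under 0.05, with the spread between replicates estimated from all 12 arrays. Array medians lay between 4.13 and 4.20 log2 units. Across genes the 2 arrays at 48 h correlated with r of 0.9967, and the 3 at 24 h with r of 0.9943 to 0.9952. Each of the 24 h arrays had its highest correlation with an array outside its group, replicate 1 with 12 h replicate 1 (0.9962), replicate 2 with untreated replicate 1 (0.996) and replicate 3 with untreated replicate 3 (0.9976). Counts for the main gene groups are also given without replicate 3, the array with the highest of these values. An exact permutation test of 2 arrays against 3 cannot go below 0.1, so all p-values come from limma. They measure the spread between replicate arrays only, which may be technical. The 10 fibroblast markers measured had mean levels of 9.79 and 9.81 at 48 h, against 9.80, 9.97 and 9.91 at 24 h. Leukocyte, adipocyte and epithelial or endothelial markers sat near the array floor, with mean levels between 3.69 and 4.03 on all 5 arrays, and 0 of their 43 measured members were called.

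Between 24 h and 48 h transcripts of sterol synthesis, DNA replication and mitosis fell, and fewer genes rose than fell. Of 19938 genes 333 were called (1.67%), 105 higher (0.527%) and 228 lower (1.14%) at 48 h. Of these, 215 changed at least 1.5-fold (49 higher, 166 lower) and 62 at least 2-fold (14 higher, 48 lower). The median log2 change was 0.57 over the genes called higher, -0.75 over those called lower and -0.01 over all genes. At an unadjusted p under 0.05 the numbers were 1098 higher and 1221 lower. All 333 called genes had 48 h arrays entirely above or below the 24 h arrays, as had 5404 of all genes tested (27.1%). The smallest adjusted p, 1.74e-05, belonged to Kif15, a mitotic kinesin.

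The size of the count depended on single arrays. Without 48 h replicate 1 there were 92 calls (15 higher, 77 lower), without 48 h replicate 2 there were 67 (22 higher, 45 lower), and without 24 h replicate 3 there were 214 (60 higher, 154 lower). All 333 genes kept their direction in each of these fits, and 40 of them (7 higher, 33 lower) passed whichever of the 5 arrays was left out. The direction could not have changed in these fits, because the 48 h arrays of all 333 lay entirely above or below the 24 h arrays. In a fit of the 5 arrays alone, 61 genes were called (15 higher, 46 lower).

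**Figure D1:**
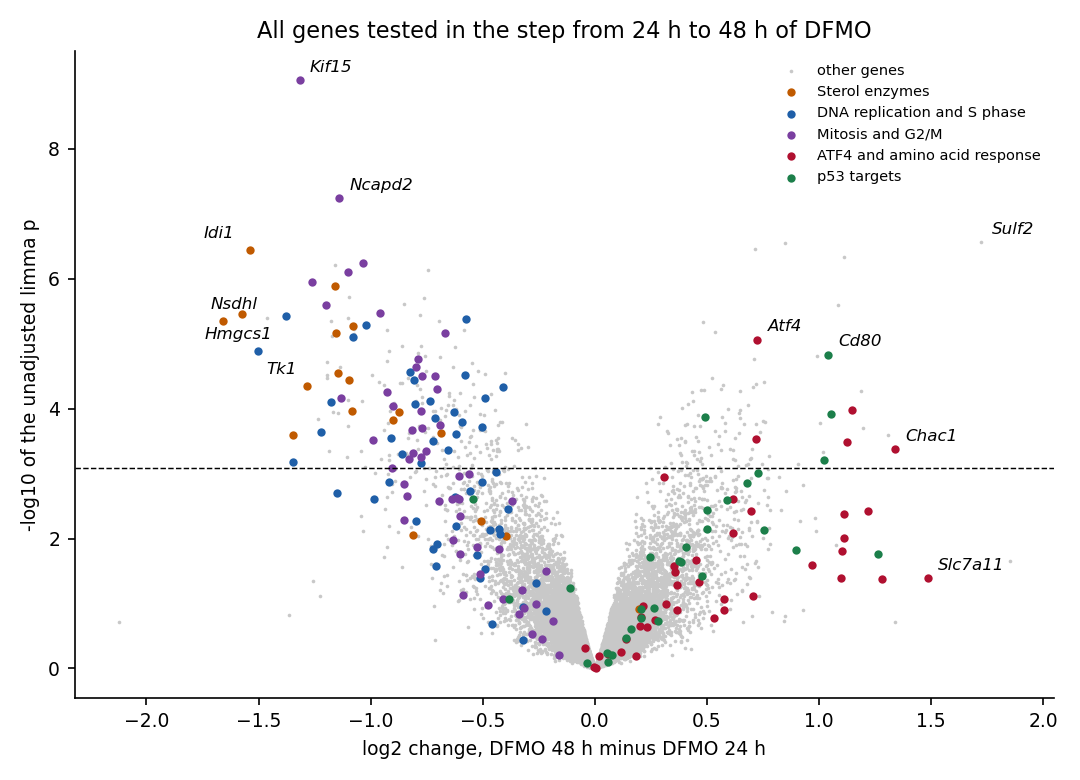
Each point is 1 of 19938 genes, with the log2 change from 24 h to 48 h on the x axis and the -log10 of its unadjusted limma p on the y axis. Genes above the dashed line passed an adjusted p of 0.05, and colours mark 5 of the gene lists. Sterol, replication and mitosis genes lie on the left, with Kif15 at the top, and most ATF4 genes lie on the right below the line.

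Enzymes of sterol synthesis held the 3 largest falls of the step. The mevalonate pathway turns acetyl-CoA into isoprenoid units and squalene, later enzymes close and trim the sterol ring, and most of these genes are known targets of the transcription factor SREBP2. Of 18 enzymes measured, 14 were called lower, 0 higher, and the median log2 change was -1.09, against -0.01 over all genes. Leaving out 48 h replicate 1 left 7 called, leaving out 48 h replicate 2 left 8, and leaving out 24 h replicate 3 left 10.

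Nsdhl, which removes a carboxylated carbon from the sterol ring, read 6.85 and 7.04 at 48 h, against 8.45, 8.87 and 8.48 at 24 h. Both later arrays lay far below all 3 earlier ones, and the fall of 1.66 log2 units was the largest of any called gene (it fell by 1.66 ± 0.18, SE, limma adjusted p = 0.00314, 3.15-fold). Hmgcs1, the synthase that opens the mevalonate pathway, read 8.38 and 8.46 at 48 h, against 9.65, 10.17 and 10.15 at 24 h, and fell by 1.57 ± 0.16 (adjusted p = 0.00314). Replicate 1 was the lowest array at 24 h and was still more than 1 log2 unit above the 48 h arrays. Idi1, the isopentenyl diphosphate isomerase, read 8.71 and 8.52 at 48 h, against 10.13, 10.28 and 10.05 at 24 h, and fell by 1.54 ± 0.12 (adjusted p = 0.0012). Fdps, which makes farnesyl diphosphate, read 7.38 and 7.34 at 48 h, against 8.49, 8.59 and 8.47 at 24 h, and fell by 1.16 ± 0.11 (adjusted p = 0.00195). In both genes the arrays of a group lay close together and the groups were well apart.

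The upper part of the pathway moved almost as a block. Fdft1, the squalene synthase, fell by 1.15 ± 0.15 (adjusted p = 0.00866), although its call was lost without 48 h replicate 2. Pmvk, Mvk and Mvd, the 2 kinases and the decarboxylase between mevalonate and isopentenyl diphosphate, fell by 1.10, 1.08 and 0.90, and these 3 were chosen after their values were seen. All 3 calls were lost without 48 h replicate 1, and those of Mvk and Mvd also without 48 h replicate 2 or 24 h replicate 3. The exception was Ggps1, which makes geranylgeranyl diphosphate and so leads away from sterols. Its change was 0.20 (adjusted p = 0.63).

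Below squalene the falls were as large but the replicates less even. Sqle, the squalene epoxidase, read 8.81 and 8.88 at 48 h, against 9.77, 10.17 and 9.83 at 24 h, and fell by 1.08 ± 0.12 (adjusted p = 0.00337). Cyp51, the lanosterol demethylase, read 9.19 and 9.17 at 48 h, against 10.10, 10.53 and 10.38 at 24 h, and fell by 1.16 ± 0.13 (adjusted p = 0.0036). Lss, the lanosterol synthase, read 7.08 and 7.58 at 48 h, against 8.27, 9.19 and 8.57 at 24 h, and fell by 1.35 ± 0.24 (adjusted p = 0.0244). Its arrays did not overlap, but they spread over almost 1 log2 unit at 24 h, and the call was lost without either 48 h array or without 24 h replicate 3. Hsd17b7, a ketosteroid reductase, fell by 1.28 ± 0.18 (adjusted p = 0.0103), with the call lost without 48 h replicate 1. Of the 10 enzymes here the 3 not called, Tm7sf2, Dhcr7 and Ebp, had changes of -0.81, -0.51 and -0.40.

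At 24 h the sterol enzymes read lower than in untreated cells on average, but no difference passed the test. The mean Nsdhl level was 8.60 at 24 h and 9.23 in untreated cells, and the median difference of 24 h from untreated was -0.40 for the mevalonate enzymes and -0.29 for the later ones. No gene of the 19938 was called in that comparison (0%), where the smallest limma adjusted p was 0.229 and 1579 genes had an unadjusted p under 0.05. The 24 h arrays were uneven in these genes, with medians over the 18 enzymes of -0.45, -0.11 and -0.37 relative to the untreated mean. The untreated arrays lay at 0.12, -0.025 and -0.10, so 24 h replicate 2 was close to untreated replicate 3. At 48 h the medians were -1.39 and -1.41, well below each 24 h array.

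Genes that govern the pathway moved less uniformly than its enzymes. Insig1, which holds the SREBP complex in the endoplasmic reticulum and is itself an SREBP target, read 8.84 and 8.90 at 48 h, against 10.12, 10.47 and 10.40 at 24 h, and fell by 1.46 ± 0.15 (limma adjusted p = 0.00314). Stard4, a sterol carrier, fell by 1.19 ± 0.23 (adjusted p = 0.0338), with the call lost without either 48 h array or without 24 h replicate 1 or 3. The other 9 members of this list, Srebf2 (-0.48) and Srebf1 (0.20) among them, were not called. None of the 7 LXR targets, the genes of sterol efflux, was called, and 1 of them had an unadjusted p under 0.05.

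Fatty acid genes shared the direction at smaller size. Of 18 measured, 6 were called lower and 0 higher, and the median was -0.38. Scd2, a stearoyl-CoA desaturase, read 10.23 and 9.93 at 48 h, against 10.82, 11.48 and 11.06 at 24 h, and fell by 1.04 ± 0.20 (adjusted p = 0.0339). Acly, which makes cytosolic acetyl-CoA from citrate, read 9.04 and 9.28 at 48 h, against 9.72, 10.09 and 9.83 at 24 h, and fell by 0.72 ± 0.11 (adjusted p = 0.0158). Fads2 and Scd1, both desaturases, fell by 0.67 ± 0.11 and by 0.46 ± 0.08 (adjusted p = 0.017 and 0.0275). In each of the 4 the groups were apart, with replicate 2 the highest 24 h array. None of the list was called without 48 h replicate 1, nor without 48 h replicate 2, and 3 were called without 24 h replicate 3. Scd2 was also lost without 24 h replicate 2 or 3, Fads2 without 24 h replicate 3 and Scd1 without 24 h replicate 1. Fasn, the fatty acid synthase, changed by -0.67 and was not called (adjusted p = 0.11).

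Promoters of the sterol enzymes are shown for Idi1 and Hmgcs1, the called members with the smallest p that have a promoter entry, because the group moved together. The windows come from RefSeq (GRCm38.p6), run from 250 bases before to 50 after the annotated start and are written 5′ to 3′ on the gene's strand. Idi1 lies at chr13:8885356-8885655 on the plus strand and Hmgcs1 at chr13:119690101-119690400 on the plus strand. Capitals mark the CCAAT box (CCAAT or ATTGG) and the sterol response element core (CACNCCA or TGGNGTG), searched on both strands.
Idi1: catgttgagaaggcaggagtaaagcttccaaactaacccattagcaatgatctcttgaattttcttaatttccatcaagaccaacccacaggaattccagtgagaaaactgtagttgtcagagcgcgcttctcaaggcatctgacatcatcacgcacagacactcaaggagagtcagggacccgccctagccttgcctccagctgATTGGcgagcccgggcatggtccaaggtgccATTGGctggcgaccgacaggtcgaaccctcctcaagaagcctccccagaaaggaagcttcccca
Hmgcs1: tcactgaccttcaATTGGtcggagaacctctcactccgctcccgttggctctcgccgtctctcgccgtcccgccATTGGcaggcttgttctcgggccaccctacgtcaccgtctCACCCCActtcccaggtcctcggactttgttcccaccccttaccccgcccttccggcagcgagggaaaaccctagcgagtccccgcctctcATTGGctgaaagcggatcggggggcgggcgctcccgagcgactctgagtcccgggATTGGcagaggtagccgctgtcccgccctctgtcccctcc
Idi1 held 2 CCAAT boxes, and Hmgcs1 held 4 and 1 sterol element core. A CCAAT box was present in 15 of the 15 sterol promoters with an entry, against 41.1% of 27025 promoters of all genes, and the sterol core in 2 of 15, against 20.6%. A match describes these letters in this window and is neither a binding site nor a cause.

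DNA replication genes fell together between 24 h and 48 h. They make deoxynucleotides, license and unwind origins, copy DNA and repackage it, and are transcribed mainly under E2F control from late G1 onward. Of 49 measured, 25 were called lower and 0 higher, all 49 changes were below 0 against 52.8% of all genes, and the median was -0.63. Leaving out 48 h replicate 1 left 10 called, leaving out 48 h replicate 2 left 3, and leaving out 24 h replicate 3 left 15. In 46 of the 49 both 48 h arrays lay below all 24 h arrays, as they did in 14.6% of all genes. The cells were collected as a G1 fraction, and in bulk RNA fewer cells with such transcripts and less of them per cell cannot be told apart.

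Tk1, thymidine kinase, read 7.39 and 6.90 at 48 h, against 8.98, 8.51 and 8.45 at 24 h, and fell by 1.5 ± 0.18 (limma adjusted p = 0.00557, 2.83-fold). Cdc6, which loads the replicative helicase onto origins, read 6.30 and 5.94 at 48 h, against 7.39, 7.65 and 7.47 at 24 h, and fell by 1.38 ± 0.14 (adjusted p = 0.00314). Rpa1, a subunit of the protein that coats single-stranded DNA, moved little but evenly, with 8.91 and 8.83 at 48 h, against 9.44, 9.42 and 9.48 at 24 h, and fell by 0.57 ± 0.06 (adjusted p = 0.00314). Replicate 2 was the lower 48 h array in all 3, and no 24 h array came near it. Chaf1a and Chaf1b, subunits of the factor that deposits histones behind the fork, fell by 1.02 ± 0.11 and 1.08 ± 0.12 (adjusted p = 0.00331 and 0.00377). The calls of Tk1 and Chaf1b were lost without 48 h replicate 2.

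Other members of the replication machinery had large but less even falls. Gins1, a subunit of the replicative helicase, read 6.73 and 6.30 at 48 h, against 8.04, 7.64 and 7.90 at 24 h, and fell by 1.35 ± 0.27 (adjusted p = 0.0431), a call that was lost whichever of the 5 arrays was left out. Rrm2, the regulated subunit of ribonucleotide reductase, read 7.85 and 7.64 at 48 h, against 8.94, 8.74 and 9.22 at 24 h, and fell by 1.22 ± 0.21 (adjusted p = 0.0232), lost without either 48 h array or without 24 h replicate 1 or 3. The groups did not overlap in either gene. Changes over the whole list ran from -1.5 for Tk1 to -0.22 for Orc2, a subunit of the origin recognition complex.

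The replication list as a whole sat at the untreated level at 24 h. Its median difference of 24 h from untreated was 0.01, with 25 of 49 members above 0 and 24 below. Relative to the untreated mean the list median was -0.59 and -0.70 on the 48 h arrays, and 0.07, 0.01 and 0.03 on the 24 h arrays. Of the 13 E2F factors and pocket proteins that govern these genes 0 were called, against 1.67% of all genes, and the median was -0.10. Among them 4 had an unadjusted limma p under 0.05, against 11.6% of all genes. Changes lay below 0 in 10 and above 0 in 3, and E2f8 and E2f7 changed by -0.94 and -0.67. Among 17 cyclins and inhibitors of G1, Cdc25a, a phosphatase that activates CDK complexes, fell by 0.70 ± 0.13 (adjusted p = 0.0286). Skp2, which targets CDK inhibitors for degradation, fell by 0.68 ± 0.13 (adjusted p = 0.0335). Both of these calls were lost whichever of the 5 arrays was left out. Cdkn1a, also on that list of cyclins and inhibitors, was not among the genes tested.

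Cdc6 and Rpa1 stand for the replication promoters, as the called members with the smallest p. Cdc6 lies at chr11:98907901-98908200 on the plus strand and Rpa1 at chr11:75348334-75348633 on the minus strand, in the same RefSeq windows. Capitals mark either of a pair of E2F motifs. The first is TTCCCGC, which reads GCGGGAA on the other strand. The second is TTGGCGC, which reads GCGCCAA on the other strand.
Cdc6: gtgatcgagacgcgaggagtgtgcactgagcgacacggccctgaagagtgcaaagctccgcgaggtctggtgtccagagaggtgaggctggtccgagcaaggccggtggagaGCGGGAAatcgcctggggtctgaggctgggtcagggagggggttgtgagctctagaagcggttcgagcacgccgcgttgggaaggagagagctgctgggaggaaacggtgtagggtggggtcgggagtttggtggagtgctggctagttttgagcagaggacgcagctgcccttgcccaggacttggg
Rpa1: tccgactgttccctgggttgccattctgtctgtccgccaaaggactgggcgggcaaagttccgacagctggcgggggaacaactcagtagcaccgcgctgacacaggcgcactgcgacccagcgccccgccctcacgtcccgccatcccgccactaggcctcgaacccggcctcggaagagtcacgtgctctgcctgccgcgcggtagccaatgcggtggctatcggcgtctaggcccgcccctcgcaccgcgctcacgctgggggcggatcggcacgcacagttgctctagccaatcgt
Cdc6 held 1 match and Rpa1 held 0, which says only that these letters are not in that window. Either form was found in 24 of 40 replication promoters with an entry (60%), against 7.79% of all promoters, and in 14 of the 22 called members with an entry (63.6%). The last letters of GCGCCAA also begin a CCAAT box when a T follows.

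Genes of mitosis also fell between 24 h and 48 h. These kinesins, checkpoint kinases, centromere proteins and condensins act after S phase and are regulated through the DREAM and B-MYB complexes. Of 54 measured, 26 were called lower and 0 higher, all 54 changes were below 0, and the median was -0.70. The number called was 14 when 48 h replicate 1 was left out, 8 when 48 h replicate 2 was and 19 when 24 h replicate 3 was.

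Kif15, a kinesin that helps to separate spindle poles, read 6.28 and 6.29 at 48 h, against 7.65, 7.62 and 7.54 at 24 h, and fell by 1.32 ± 0.05 (limma adjusted p = 1.74e-05, 2.49-fold). Ncapd2, a condensin subunit, read 7.06 and 6.99 at 48 h, against 8.10, 8.18 and 8.21 at 24 h, and fell by 1.14 ± 0.07 (adjusted p = 0.000569). The replicates of each gene lay close together, with the groups more than 1 log2 unit apart. Bub1b and Bub1 encode kinases of the spindle assembly checkpoint. Bub1b read 6.88 and 7.12 at 48 h, against 8.13, 8.44 and 8.21 at 24 h, and fell by 1.26 ± 0.11 (adjusted p = 0.00184). Bub1 read 7.81 and 7.77 at 48 h, against 9.07, 8.91 and 8.98 at 24 h, and fell by 1.20 ± 0.12 (adjusted p = 0.00284). Kif4, a chromosome-bound kinesin, fell by 1.10 ± 0.10 (adjusted p = 0.00142) and Cdc25c, the phosphatase that activates CDK1 at mitotic entry, by 1.04 ± 0.09 (adjusted p = 0.00134). These 6 calls held whichever of the 5 arrays was left out.

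The smallest changes of the list were those of Spc25 (-0.16) and Ccnf (-0.19), chosen after their values were seen. As with replication, the level at 24 h was that of untreated cells, with a median difference of 0.01 and 28 of 54 members above 0. On the 48 h arrays the list median relative to untreated was -0.71 and -0.72, against -0.04, -0.11 and 0.11 on the 24 h arrays.

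The mitotic promoters shown are those of Kif15 at chr9:122950831-122951130 on the plus strand and Ncapd2 at chr6:125191537-125191836 on the minus strand, the called members with the smallest p. Capitals mark the cell cycle homology region, CHR (TTTGAA or TTCAAA), and the CCAAT box, searched on both strands.
Kif15: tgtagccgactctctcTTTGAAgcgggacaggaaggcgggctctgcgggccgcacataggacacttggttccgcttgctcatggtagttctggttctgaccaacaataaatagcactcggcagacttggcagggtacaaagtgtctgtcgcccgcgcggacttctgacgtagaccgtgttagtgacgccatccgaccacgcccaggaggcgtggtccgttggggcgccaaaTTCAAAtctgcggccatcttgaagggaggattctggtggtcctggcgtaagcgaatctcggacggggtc
Ncapd2: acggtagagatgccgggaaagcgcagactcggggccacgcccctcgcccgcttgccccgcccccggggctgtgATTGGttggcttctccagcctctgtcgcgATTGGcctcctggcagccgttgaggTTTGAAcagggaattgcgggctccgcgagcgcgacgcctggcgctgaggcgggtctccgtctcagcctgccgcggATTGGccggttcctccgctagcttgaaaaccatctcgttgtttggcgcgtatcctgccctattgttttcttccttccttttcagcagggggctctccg
Kif15 held 2 CHR matches and no CCAAT box, and Ncapd2 held 1 CHR match and 3 CCAAT boxes. A CHR was present in 33 of 45 mitotic promoters with an entry (73.3%), against 20.2% of all promoters, and a CCAAT box in 34 of 45 (75.6%), against 41.1%.

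Homologous recombination and Fanconi genes, which repair breaks and crosslinks at replication forks, had the same direction. Of 25 measured, 7 were called lower and 0 higher, all 25 changes were below 0, and the median was -0.33. Exo1, an exonuclease that resects DNA ends, read 6.20 and 5.88 at 48 h, against 7.17, 7.19 and 7.27 at 24 h, and fell by 1.18 ± 0.13 (limma adjusted p = 0.00314). Fancb, of the Fanconi core complex, read 6.54 and 6.0 at 48 h, against 7.44, 7.52 and 7.43 at 24 h, and fell by 1.20 ± 0.16 (adjusted p = 0.00908). The 24 h arrays of both genes were tight and replicate 2 was the lower at 48 h. Brca1 fell by 1.14 ± 0.15 (adjusted p = 0.00763) and Chek1, the replication checkpoint kinase, by 0.78 ± 0.12 (adjusted p = 0.0158). Without 48 h replicate 2 only Exo1 of the list was called, and without 48 h replicate 1 the call of Chek1 was lost. The list had 6 calls without 24 h replicate 3. Replication-dependent histone genes, which are expressed in S phase, had a median of -0.03 over 25 members.

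**Figure D2:**
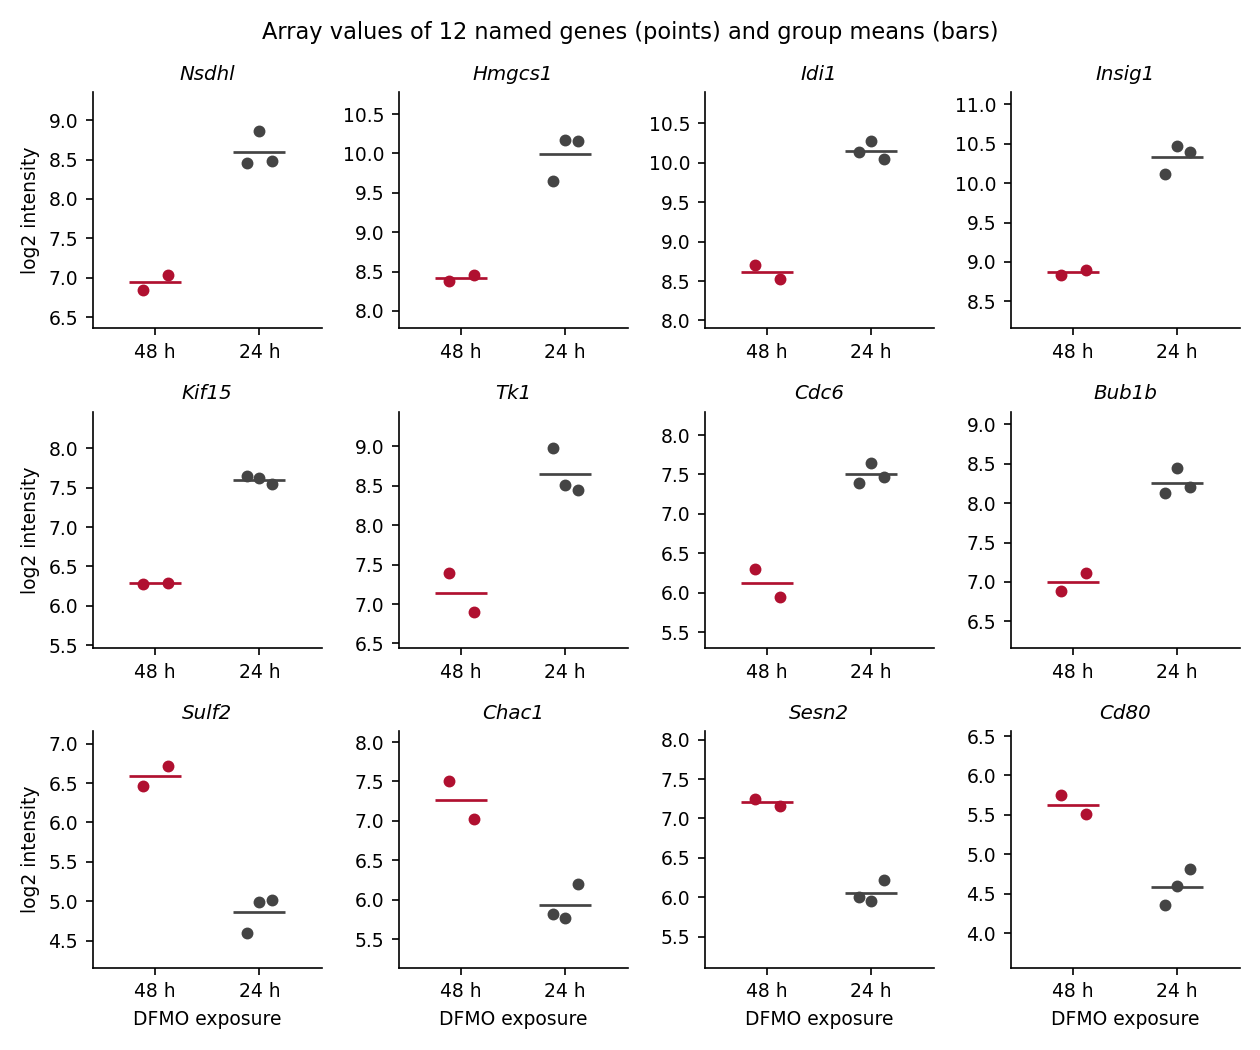
Log2 intensity of 12 genes on the 2 arrays at 48 h (red) and the 3 arrays at 24 h (grey), each panel spanning 3 log2 units, with bars at the group means. In every panel the 48 h arrays lie entirely below or above the 24 h arrays, and Kif15 has the least spread.

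Fewer genes rose than fell. Of the 105 called higher 15 were members of any of the 34 lists, as were 87 of the 228 called lower, and the lists were chosen with earlier results known. Sulf2, a secreted enzyme that removes sulfate from heparan sulfate chains, had the largest rise of any called gene. It read 6.46 and 6.72 at 48 h, against 4.59, 4.99 and 5.01 at 24 h, and rose by 1.72 ± 0.13 (limma adjusted p = 0.0012, 3.31-fold). Both 48 h arrays were well clear of the 24 h arrays, which sat less than 1 log2 unit above the array median. Anxa8, a calcium-dependent membrane-binding annexin, read 10.70 and 10.83 at 48 h, against 9.64, 9.59 and 9.74 at 24 h, and rose by 1.11 ± 0.09 (adjusted p = 0.00131). Chchd5, a small mitochondrial protein, read 6.34 and 6.20 at 48 h, against 5.11, 5.09 and 5.36 at 24 h, and rose by 1.09 ± 0.11 (adjusted p = 0.00284). These 3 calls held whichever of the 5 arrays was left out.

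The remaining large rises rested more on single arrays. H2bc4, a core histone gene, read 7.89 and 7.71 at 48 h, against 6.90, 6.31 and 6.24 at 24 h, and rose by 1.31 ± 0.23 (adjusted p = 0.0244). It was the 1 histone called of 25, and the call was lost without either 48 h array or without 24 h replicate 2 or 3. Slc9a9, an endosomal sodium and proton exchanger, read 6.73 and 6.93 at 48 h, against 5.37, 5.75 and 5.78 at 24 h, and rose by 1.20 ± 0.20 (adjusted p = 0.0214). Tmem150a, a membrane protein, read 6.01 and 6.05 at 48 h, against 4.97, 4.74 and 4.82 at 24 h, and rose by 1.19 ± 0.17 (adjusted p = 0.0112). No array of one group entered the range of the other in these 3 genes. Slc38a7, a lysosomal glutamine exporter, Sh2d6 and Morn2 rose by 1.02 ± 0.19, 1.01 ± 0.17 and 0.99 ± 0.12 (adjusted p = 0.0346, 0.02 and 0.00602). Without 48 h replicate 1 the calls of Slc9a9, Tmem150a, Slc38a7, Sh2d6 and Morn2 were lost, and without 48 h replicate 2 those of Slc9a9, Tmem150a and Slc38a7. Without 24 h replicate 1 those of Slc9a9, Slc38a7 and Sh2d6 were lost, and without 24 h replicate 3 those of Slc38a7 and Sh2d6.

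Genes of the ATF4 and amino acid response stood higher at 48 h as a group, with 12.2% called against 1.67% of all genes. ATF4 is translated when the initiation factor eIF2 is phosphorylated and turns on amino acid transporters, synthetic enzymes and stress regulators. Of 41 measured, 5 were called higher and 0 lower, 39 changes were above 0 against 47.2% of all genes, and the median was 0.47. Only 1 was called when 48 h replicate 1 was left out, 0 when 48 h replicate 2 was and 3 when 24 h replicate 3 was.

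Atf4 itself read 9.94 and 9.98 at 48 h, against 9.29, 9.27 and 9.14 at 24 h, and rose by 0.73 ± 0.08 (limma adjusted p = 0.00412, 1.65-fold). Its arrays were tight in both groups, and the call was lost without 48 h replicate 2. Chac1, an enzyme that degrades glutathione, read 7.50 and 7.03 at 48 h, against 5.82, 5.77 and 6.19 at 24 h, and rose by 1.34 ± 0.25 (adjusted p = 0.0334). Sesn2, a sestrin that restrains mTORC1 signalling, read 7.25 and 7.15 at 48 h, against 6.0, 5.96 and 6.22 at 24 h, and rose by 1.15 ± 0.18 (adjusted p = 0.0158). Ddit3, the stress factor also called CHOP, read 7.21 and 6.83 at 48 h, against 6.22, 5.53 and 5.93 at 24 h, and rose by 1.13 ± 0.20 (adjusted p = 0.0282). All these arrays were higher at 48 h than any at 24 h, with replicate 1 the higher of the 48 h arrays in Chac1, Sesn2 and Ddit3. Ppp1r15a, which brings a phosphatase to eIF2, rose by 0.72 ± 0.13 (adjusted p = 0.0267). The calls of Chac1, Sesn2, Ddit3 and Ppp1r15a were lost without either 48 h array. Without 24 h replicate 1 that of Chac1 was lost, without 24 h replicate 2 those of Chac1, Ddit3 and Ppp1r15a, and without 24 h replicate 3 those of Ddit3 and Ppp1r15a.

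The replicates at 48 h disagreed more in this list than in the groups that fell. Relative to the untreated mean the list median was 0.60 and 0.18 on the 48 h arrays, and -0.19, -0.16 and 0.03 on the 24 h arrays. The untreated arrays themselves lay at -0.12, -0.08 and 0.21, so 48 h replicate 2 was below untreated replicate 3. Slc7a11, the cystine importer, had the largest change of the list and was not called, and it was chosen after its values were seen. It read 8.21 and 6.79 at 48 h, against 5.68, 5.80 and 6.57 at 24 h, a change of 1.48 ± 0.63 (adjusted p = 0.391). Replicate 1 at 48 h lay far above all other arrays, and replicate 2 just above 24 h replicate 3. The synthetic enzymes Psat1, Phgdh and Shmt2, also picked after their values were seen, had changes of 0.00, 0.06 and 0.14, and none of the 20 aminoacyl-tRNA synthetases was called (3 at an unadjusted p under 0.05). A C/EBP-ATF element (TGATGCA or TGCATCA) was in 9 of 33 promoters of the list with an entry (27.3%), against 3.63% of all promoters, and in 1 of the 5 called members.

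Genes of the endoplasmic reticulum and heat shock responses had 6.9% and 0% of members called, against 1.67% of all genes. Of 29 genes of the unfolded protein response and its chaperones, Atf6, a membrane-bound stress sensor, was called higher (0.39 ± 0.08, adjusted p = 0.0426) and Dnajb11, a co-chaperone, was called lower (-0.37 ± 0.07, adjusted p = 0.0261), with a list median of -0.10. Both calls were lost whichever of the 5 arrays was left out. None of 21 heat shock genes was called, and 10 had an unadjusted limma p under 0.05, against 11.6% of all genes. Their changes lay below 0 in 16 and above 0 in 5.

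Known targets of p53 also stood higher as a group, with 4 called higher and 0 lower of 30 (13.3%), against 1.67% of all genes. The median was 0.38, and 26 changes lay above 0, against 47.2% of all genes. Trp53, Cdkn1a, Bax and Trp53cor1 of this list were not among the genes tested. Cd80, a costimulatory ligand, read 5.76 and 5.50 at 48 h, against 4.36, 4.60 and 4.81 at 24 h, and rose by 1.04 ± 0.13 (limma adjusted p = 0.00602). Trp53inp1, a p53 cofactor, read 7.51 and 7.47 at 48 h, against 6.40, 6.19 and 6.72 at 24 h, and rose by 1.05 ± 0.17 (adjusted p = 0.0164). Eda2r, a receptor of the tumour necrosis factor family, read 8.78 and 8.94 at 48 h, against 7.62, 8.06 and 7.84 at 24 h, and rose by 1.02 ± 0.20 (adjusted p = 0.0412). The groups were apart in all 3, with the wider spread at 24 h. Ercc5, a repair endonuclease, rose by 0.49 ± 0.08 (adjusted p = 0.0175). Without 48 h replicate 1 none of the 4 was called, without 48 h replicate 2 only Cd80 was, and without 24 h replicate 3 the calls of Eda2r and Ercc5 were lost, which left 2. Without 24 h replicate 1 that of Eda2r was lost, and without 24 h replicate 2 that of Ercc5. Mdm2, the ligase that degrades p53, changed by 0.73 and just missed the threshold (adjusted p = 0.055), and it was chosen after its values were seen.

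Calls also came from 3 further lists, each at a share above the 1.67% of all genes. The share was 5.56% for lysosome and autophagy, 8.33% for the arrestin-domain list and 15.4% for pentose phosphate and NRF2 genes. In the last of these 14 of 26 had an unadjusted limma p under 0.05, against 11.6% of all genes. Hexa, a lysosomal hydrolase, read 9.95 and 9.97 at 48 h, against 9.22, 9.27 and 9.14 at 24 h, and rose by 0.75 ± 0.10 (limma adjusted p = 0.00987). Sqstm1, an autophagy receptor, rose by 0.72 ± 0.12 (adjusted p = 0.02), and these were the 2 calls among 36 genes of lysosome and autophagy. Arrdc4, an arrestin-domain protein that limits glucose uptake, rose by 0.71 ± 0.09 (adjusted p = 0.00628), the 1 call of 12 in its list. The pentose phosphate and NRF2 list of 26 had 4 falls, with Nqo1, a quinone reductase, at 7.77 and 7.72 at 48 h, against 9.21, 8.57 and 9.14 at 24 h, so that it fell by 1.23 ± 0.20 (adjusted p = 0.0185). Tkt, transketolase, fell by 0.69 ± 0.09 (adjusted p = 0.00605). Idh1 and Pgd, which make cytosolic NADPH, fell by 0.92 ± 0.15 and 0.44 ± 0.09 (adjusted p = 0.02 and 0.037). Without 48 h replicate 1 the calls of Hexa, Arrdc4, Nqo1, Idh1 and Pgd were lost, and without 48 h replicate 2 those of Sqstm1, Hexa, Arrdc4, Nqo1, Idh1 and Pgd. Without 24 h replicate 3 those of Nqo1, Idh1 and Pgd were lost, and without 24 h replicate 2 that of Pgd.

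**Figure D3:**
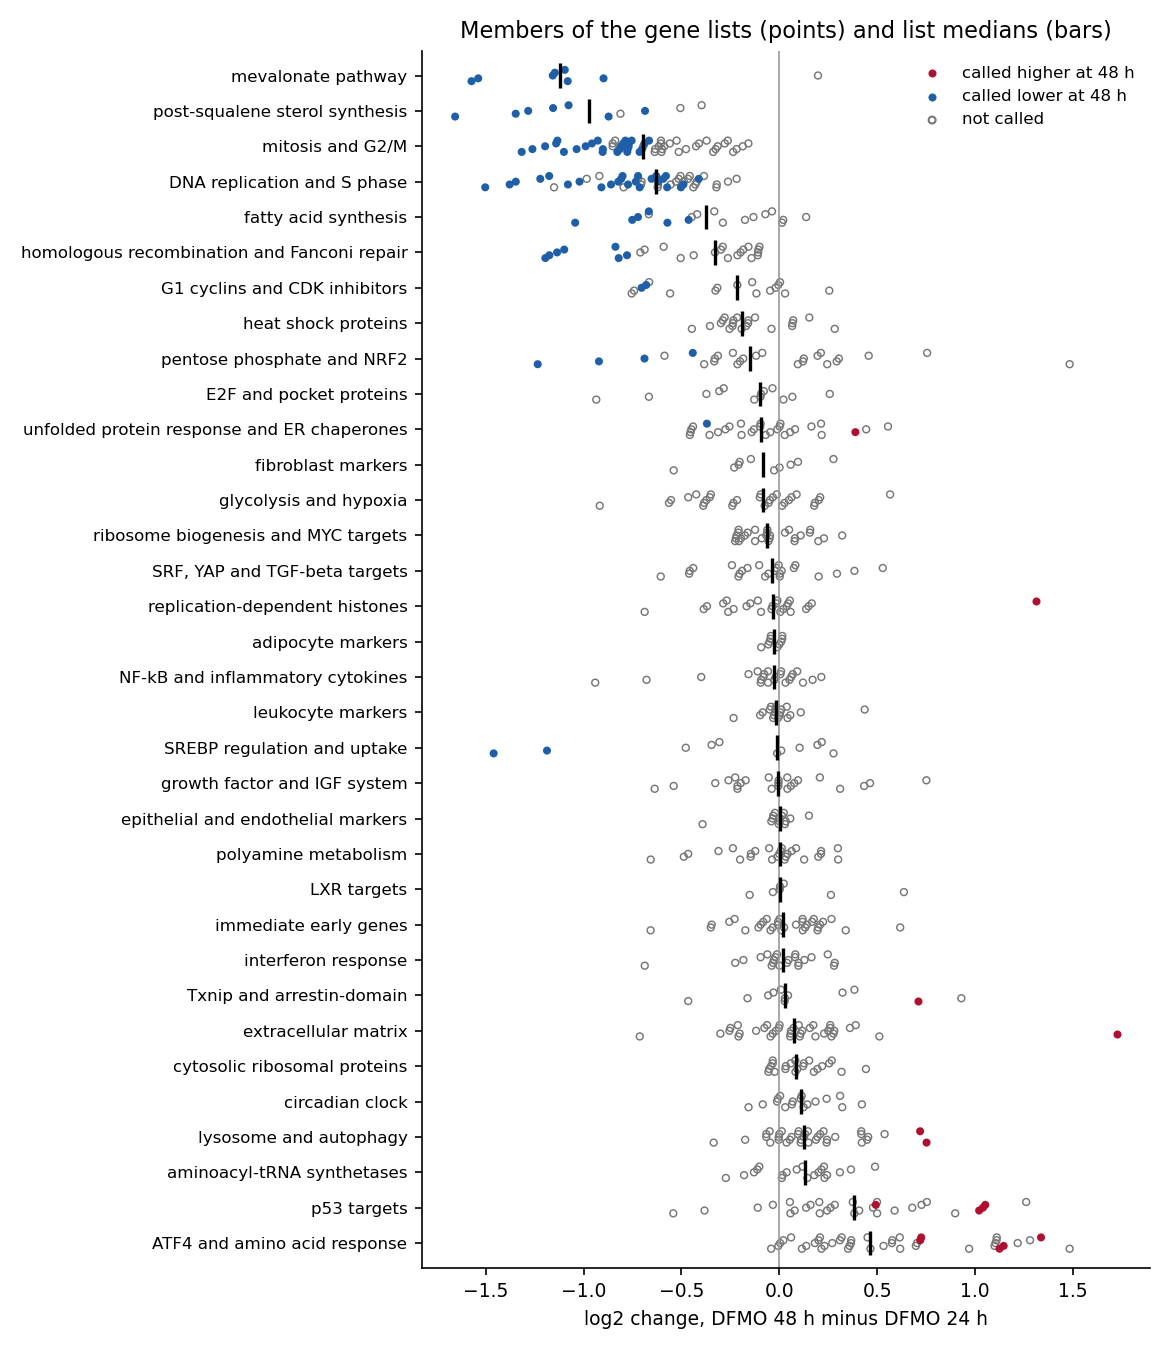
Each row is 1 of the 34 gene lists and each point a member, placed by its log2 change from 24 h to 48 h on the x axis. Filled points passed an adjusted p of 0.05, and bars mark list medians. The medians run from -1.12 for the mevalonate pathway at the top to 0.47 for the ATF4 list at the bottom.

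None of the measured genes of polyamine metabolism passed the test in this step. Odc1, which encodes the enzyme that DFMO blocks, read 9.82 and 9.64 at 48 h, against 9.81, 9.56 and 9.85 at 24 h, a change of -0.01 ± 0.16 (limma adjusted p = 0.997). The groups overlapped fully, and the transcript does not report the activity of the enzyme. Of 26 members measured 0 were called, against 1.67% of all genes. The list held 34 genes, and Oaz1, Sms, Amd1, Amd2, Paox, Mat2a, Ahcy and Slc22a3 were not among the genes tested. Changes of the 26 measured lay above 0 in 13 and below in 13, and 4 had an unadjusted limma p under 0.05, against 11.6% of all genes. Smox, spermine oxidase, read 4.60 and 5.18 at 48 h, against 5.00, 6.01 and 5.63 at 24 h, a change of -0.66 ± 0.27 (adjusted p = 0.374), with overlapping arrays. Oaz2, an antizyme that sends ornithine decarboxylase for degradation, read 4.70 and 4.63 at 48 h, against 5.09, 5.11 and 5.19 at 24 h, a change of -0.47 ± 0.15 (adjusted p = 0.214). Its groups did not overlap but the difference did not pass the test. Sat1, the acetyltransferase that starts polyamine breakdown, changed by 0.21 ± 0.14.

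Several programmes of growing fibroblasts had no call between 24 h and 48 h. That says little in lists this short, since 1.67% of all genes were called. In limma 0 of 28 ribosome biogenesis genes (2 at an unadjusted p under 0.05), 0 of 22 ribosomal protein genes (0), 0 of 30 glycolysis genes (6), 0 of 32 immediate early genes (3) and 0 of 24 SRF, YAP and TGF-beta targets (2) were called. Neither were any of 22 interferon genes (3), 23 NF-kB genes (2), 17 clock genes (0) or 24 growth factor and IGF genes (7). Over all genes 11.6% had an unadjusted limma p under 0.05, a share that the glycolysis, interferon and growth factor lists exceeded. Medians of these 9 lists lay between -0.08 and 0.11. Among 37 matrix genes the 1 call (2.7%) was Sulf2.

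**Figure D4:**
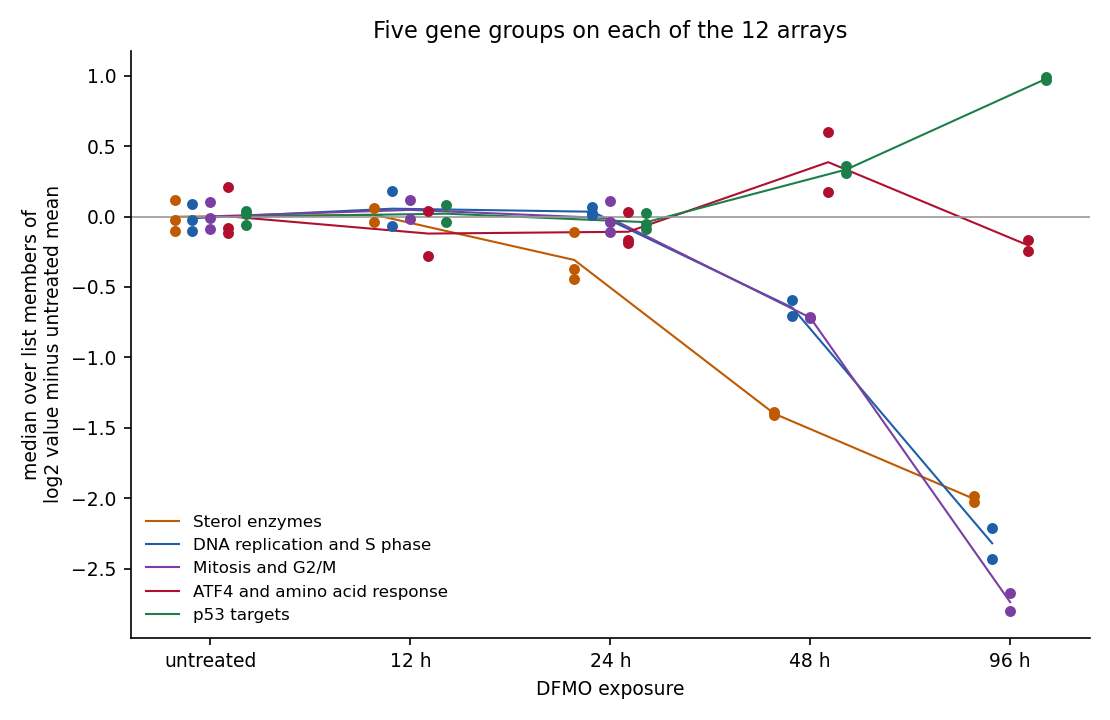
Median over the members of 5 gene groups of the log2 value minus the untreated mean (y axis), 1 point per array in order of exposure (x axis), with lines through the group means. Sterol enzymes lie at -0.45 to -0.11 on the 24 h arrays and at -1.39 and -1.41 on the 48 h arrays, whereas replication and mitosis lie between -0.11 and 0.11 at 24 h and between -0.72 and -0.59 at 48 h.

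The same genes were set against the end of the time course, in a comparison that shares no array with the step. At 96 h against untreated cells 4372 genes were called (21.9%), 2360 higher and 2012 lower. Of the 333 genes of the step 324 were called there in the same direction, 98 higher and 226 lower, which is 97.3% of the step's calls and 7.41% of those at 96 h. None was called in the opposite direction. The share was 89.6% of 67 calls without 48 h replicate 2 and 98.9% of 92 without 48 h replicate 1. The genes called lower had median values relative to untreated of -0.79 and -0.84 on the 48 h arrays and -1.98 and -2.0 on the 96 h arrays. Those called higher had medians of 0.67 and 0.65 at 48 h and of 1.05 and 1.09 at 96 h. On the 24 h arrays the medians of both sets lay between -0.09 and 0.09.

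The 9 genes of the step that were not called at 96 h against untreated were Adh7, Chac1, Eif2s2, Fyn, Glce, Porcn and Rin1, higher at 48 h, and Ptger4 and Zswim1, lower. Chac1 had mean levels of 5.93 at 24 h, 7.26 at 48 h and 5.68 at 96 h, against 6.17 in untreated cells. Rin1, a Ras effector, read 8.13 and 8.20 at 48 h, against 7.64, 7.38 and 7.53 at 24 h, and rose by 0.65 ± 0.10 (limma adjusted p = 0.0182), while the 96 h arrays read 7.62 and 7.50. Eif2s2, the beta subunit of eIF2, read 10.32 and 10.09 at 48 h, against 9.76, 9.74 and 9.79 at 24 h, and rose by 0.44 ± 0.07 (adjusted p = 0.0206), while the 96 h arrays read 9.57 and 9.69. In these 3 genes both 48 h arrays lay above every other array of the series. Each of the 9 calls was lost in at least 3 of the fits that left out 1 of the 5 arrays. Over the ATF4 list the median change from 48 h to 96 h was -0.54, with 2 members called higher and 17 lower in a comparison that shares the 48 h arrays and called 8.64% of all genes, and at 96 h against untreated it was -0.24, with 7 called higher and 15 lower.

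Sterol, replication and mitosis lists were also followed from 48 h to 96 h, where each median lay below 0. For the replication list the change from 48 h to 96 h had a median of -1.78 with 45 of 49 members called lower, and for mitosis it was -1.83 with 51 of 54. For the mevalonate enzymes it was -0.71 with 5 of 8 called lower and 1 higher, and for the later sterol enzymes -0.32 with 3 of 10 lower. The medians of the step itself were -0.63 for replication, -0.70 for mitosis, -1.12 for the mevalonate enzymes and -0.97 for the later ones. Both comparisons use the 48 h arrays, and the difference between them was not tested.

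**Figure D5:**
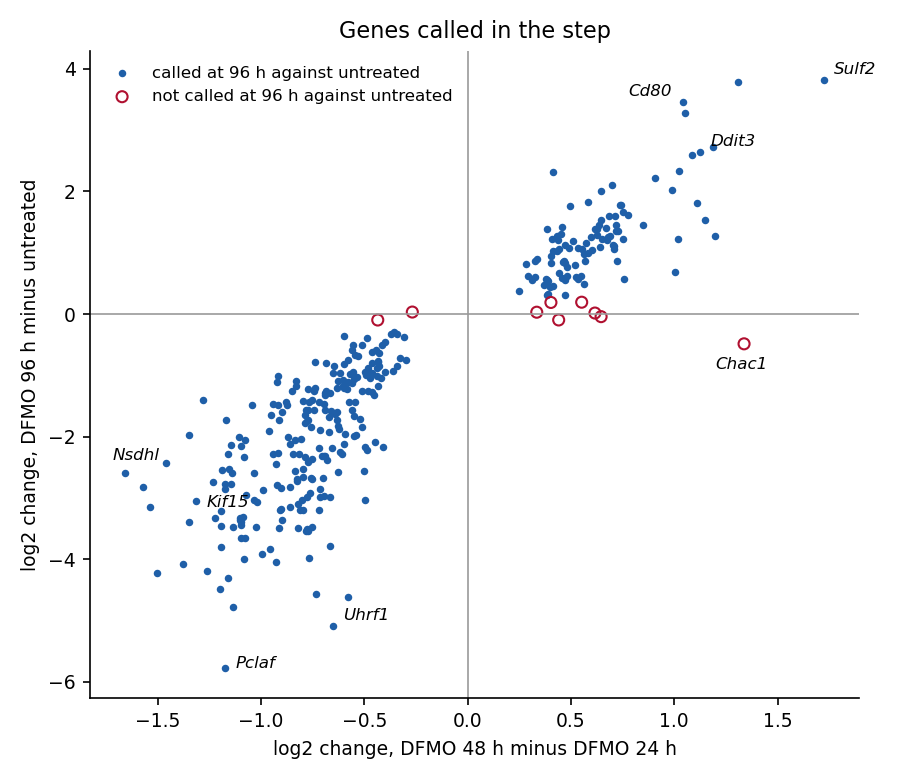
The 333 genes called in the step, by log2 change from 24 h to 48 h (x axis) and at 96 h against untreated (y axis). The group means of these changes share no arrays, but the calls share 1 estimate of the spread. Filled points were called at 96 h and all 324 of them lie in the quadrants of equal sign. The 9 open circles were not called there, with Chac1 at 1.34 and -0.49.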

How the data were processed

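The deposited table holds log2 intensities from 12 Affymetrix whole-transcript mouse arrays of G1-sorted NIH3T3 cells, 1 array per sample. Per the submitters' processing notes the authors used RMA and Partek, of versions not given in the sources. RMA as commonly run subtracts background, quantile-normalizes and summarises probes. It brings the arrays to a common distribution, so changes are relative to the other genes. No source used here names the genome build of the arrays. Values ran from 2.54 to 13.18, arrays have no read depth, and the number of arrays limits the precision.

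Of 35399 transcript clusters 21789 had 1 symbol, 1621 several and 11989 none. Each of 19938 genes took its cluster with the highest mean (999 genes had several). Group means were estimated from all 12 arrays in 1 limma model (limma 3.58.1, R 4.3.3), with eBayes and Benjamini-Hochberg adjustment over all genes. The comparisons were 48 h against 24 h and, beside it, 24 h and 96 h against untreated and 96 h against 48 h. The test was checked on simulated data with independent errors on every array. That check does not cover deviations that real arrays may share. Figures used Python 3.11.15, pandas 2.3.3 and matplotlib 3.10.9.

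Members and the 34 gene lists (771 genes measured of 863) were chosen with earlier results of these data known. Named genes were the 15 largest rises and falls among the called genes, up to 4 members of each list with the smallest p, the polyamine list, and counts of 5 or fewer in full. Arrays are labelled as biological replicates, but no source names separate cultures, so p-values measure the spread between these samples, which may be technical. Alternatives were the 5 arrays alone, a replicate block, array weights, level filters, other scalings, other cluster rules and leaving out arrays.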

Additional observations from a re-analysis of the deposited data

Results flagged for a closer look

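Transcript clusters that carry several gene symbols or none were outside the comparisons of genes and were examined separately, which is why they appear here. When all 35399 clusters were tested together in limma, 4 of the 1621 clusters with several symbols were called at 48 h against 24 h (0 higher, 4 lower, 0.247%), and 10 of the 11989 with no symbol (2 higher, 8 lower, 0.0834%). In the same fit 193 of the 19938 genes were called.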

How the results depend on the processing

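All 333 calls of the step kept their direction under every one of 17 alternatives in which they were tested. Of these, 28 (5 higher, 23 lower) were called under every alternative that tested them. The 2 level filters tested 332 and 303 of the 333. Leaving out or reweighting arrays could not have changed the direction, because the 48 h arrays of all 333 lay entirely beyond the 24 h arrays. Numbers called moved more. In a fit of the 5 arrays alone 61 genes were called (15 higher, 46 lower), with 3 sterol enzymes, 5 replication and 9 mitosis genes, and this fit estimates the spread from 5 arrays in place of 12. With array weights there were 521 (183 higher, 338 lower). With all clusters tested together there were 193 (49 higher, 144 lower), and this fit adjusts over more features. Leaving out each array in turn gave 67 to 257 genes, 15 to 75 higher and 45 to 184 lower, with 7 to 15 sterol enzymes, 3 to 20 replication and 8 to 24 mitosis genes. The share called in the same direction at 96 h against untreated then lay between 89.6% and 98.9%. Deviations of 24 h replicate 3, untreated replicate 3 and 12 h replicate 2 went together across genes (r of 0.209 to 0.581). With these 3 as a block 428 genes were called (158 higher, 270 lower), 306 of the 333 among them. With the 3 left out there were 320 (123 higher, 197 lower), of which 199 were among the 333. The cause was not tested. Same-numbered arrays at 48 h and 24 h had deviations with r of 0.35 and 0.419, but only 2 numbers are shared and no label ties them, so the pairing is not established. The replicate block called 196 higher and 242 lower, a split of 55.3% lower against 68.5% in the fit without it, with 10 ATF4 and 8 p53 genes higher. Level filters, centring, repeated quantile normalization, trended variances and mean values of clusters kept the numbers within 1.5 times.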

Other observations

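Of the 333 genes called at 48 h against 24 h, 231 belonged to none of the lists (90 higher, 141 lower). Those named here were chosen after their values were seen. The first 4 named encode proteins of DNA replication or chromosome segregation. Asf1b, a histone chaperone, read 8.18 and 8.14 at 48 h, against 9.33, 9.32 and 9.31 at 24 h, and fell by 1.16 ± 0.10 (limma adjusted p = 0.00134). Chtf18, of an alternative clamp loader, read 5.76 and 5.88 at 48 h, against 6.84, 7.19 and 6.94 at 24 h, and fell by 1.17 ± 0.13 (adjusted p = 0.00377). Clspn, a mediator of the replication checkpoint, read 6.11 and 5.92 at 48 h, against 7.18, 6.95 and 7.21 at 24 h, and fell by 1.10 ± 0.11 (adjusted p = 0.00266). The arrays of the groups stood well apart in all 3, and these calls held under all 17 alternatives. Nek2, a centrosomal kinase, fell by 1.19 ± 0.15 (adjusted p = 0.00681), a call that was lost without 48 h replicate 1.

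Some genes of lipid metabolism outside the lists also fell. Tmem97, a sterol-responsive membrane protein, read 8.99 and 9.31 at 48 h, against 9.89, 10.30 and 10.00 at 24 h, and fell by 0.92 ± 0.14 (limma adjusted p = 0.0158). Aacs, which activates acetoacetate for lipid synthesis, read 7.12 and 7.28 at 48 h, against 7.95, 8.28 and 8.26 at 24 h, and fell by 0.96 ± 0.13 (adjusted p = 0.00987). Lbr, an inner nuclear membrane protein with sterol reductase activity, fell by 0.77 ± 0.12 (adjusted p = 0.0142). In each of the 3 the groups were apart, and the calls were lost without either 48 h array.

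Among the rises outside the lists, Mgmt, which removes alkyl groups from guanine, read 5.09 and 5.23 at 48 h, against 4.41, 4.45 and 4.48 at 24 h, and rose by 0.71 ± 0.06 (limma adjusted p = 0.0012). Mocs1, of molybdenum cofactor synthesis, read 6.80 and 6.89 at 48 h, against 6.01, 5.90 and 6.07 at 24 h, and rose by 0.85 ± 0.07 (adjusted p = 0.0012). Both calls held under each of the 17 alternatives that tested the gene. Tsc22d3, a glucocorticoid-responsive leucine zipper protein, rose by 0.71 ± 0.10 (adjusted p = 0.0107), and Eif4a2, an initiation helicase, by 0.62 ± 0.12 (adjusted p = 0.0396). The call of Tsc22d3 was lost without either 48 h array, and that of Eif4a2 whichever of the 5 arrays was left out.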
